A study of Mus musculus with 81 samples.

Results

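Nrip3, Cdhr1, Stc1, Crtac1, Fam163b and Cadm4 are 6 genes of the 57010 measured. They lie on mouse chromosomes 7, 14, 14, 19, 2 and 7, outside the segments that are triplicated in the Ts65Dn mouse, and they were chosen by how their RNA differed between trisomic (Ts) and disomic (2N) mice in dentate granule cells (DGCs), or between DGCs and CA3 pyramidal neurons (PNs), on the normal choline diet (ChN). The ChN values of DGCs and CA3 PNs are therefore given as a description with no test. The tests below use the mice of dams on the choline-supplemented diet (ChP), none of which is a ChN mouse, and CA1 PNs. The question was whether the ChN difference recurs on ChP.

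Granule cells of the dentate gyrus receive the main cortical input to the hippocampus and send mossy fibers to CA3 PNs, which project on to CA1 PNs. Cdhr1 and Cadm4 encode cell surface adhesion molecules, Cdhr1 a cadherin-related protein best known from photoreceptor outer segments and Cadm4 an immunoglobulin-type synaptic cell adhesion molecule of the SynCAM family. Stc1 and Crtac1 encode secreted proteins, stanniocalcin 1, an inhibitor of the PAPP-A protease that frees insulin-like growth factors from their binding proteins, and an antagonist of the Nogo receptor. Nrip3 encodes a protein named for its interaction with nuclear receptors, and Fam163b a small membrane protein of little-known function.

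Ts65Dn mice carry an additional copy of the distal part of mouse chromosome 16 on a small extra chromosome and are a model of Down syndrome. Per the paper, the extra chromosome also holds a segment of mouse chromosome 17 from near its centromere. Neurons of each population were cut out of brain sections by laser capture, so each library is a bulk of captured cells of 1 mouse at 6 MO (months of age). Dams received chow with 1.1 g/kg choline (ChN) or 5.0 g/kg choline (ChP) from conception to weaning, after which all offspring were fed the control diet. The paper describes the ChN mice as male, and the sex of the ChP mice is not given in the sources used here. DGCs were taken from 6 2N and 6 Ts mice on ChN and 7 2N and 9 Ts mice on ChP, CA3 PNs from 6, 6, 7 and 7 mice in the same order, and CA1 PNs from 6, 5, 7 and 9 mice. Mouse 15-145 has a Ts label on its CA3 PN sample and a 2N label on its remaining samples, and was placed with 2N throughout. Fewer cells of a type in a captured bulk and less RNA per cell cannot be told apart in these data.

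Library totals ran from 358355 to 4744036 expected counts (the estimated number of reads per gene, unnormalized), and the 3 shallowest DGC libraries on ChP were all 2N. The mean log2 CPM (counts scaled to a common library size) over 67 gene identifiers of the triplicated chromosome 16 segment was higher in every Ts library (4.96 to 5.35) than in the 2N libraries of DGCs (4.49 to 4.82) and CA3 PNs (4.50 to 4.77), the library of mouse 15-145 among them at 4.77. In CA1 PNs the Ts libraries ran from 5.04 to 5.35, and 1 ChN library labelled 2N, of mouse 17-154, reached 5.23. The DGC and CA3 PN libraries of that mouse were at 4.73 and 4.60, and its CA1 PN library was kept with 2N as labelled. All 6 dentate granule markers had counts in every DGC group, and their mean log2 CPM ran from 7.48 to 8.06 in DGC libraries. Of the mossy cell markers, Drd2, Calb2 and Csf2rb2 were each at 0 counts in at least 1 DGC group.

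Levels over the 2N ChP libraries are given first, since the genes were not chosen by their level in these libraries. Per transcript length, Fam163b was the most abundant of the 6 in DGCs, with a median of 214 TPM (a length-scaled share of transcripts) against 15.9 for Nrip3, 15.1 for Crtac1, 5.22 for Cadm4, 4.81 for Cdhr1 and 0.83 for Stc1. The ranges of Nrip3 (9.72 to 43.0 TPM) and Crtac1 (12.8 to 22.8 TPM) overlapped, as did those of Cadm4 (2.74 to 9.43 TPM) and Cdhr1 (1.91 to 8.22 TPM). In CA3 PNs Nrip3 led with a median of 122 TPM, followed by Crtac1 at 23.7 and Cadm4 at 14.4, while Fam163b was at 2.59 and Cdhr1 at 2.52. The order of the 6 genes was therefore not the same in the 2 populations.

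Between populations, edgeR's quasi-likelihood test called all 6 members with DGCs set against CA3 PNs, at an unadjusted p under 0.05, the study's threshold for differentially expressed genes (DEGs), where 47.5% of all genes tested were called. Fam163b stood far apart, with 454 to 682 CPM in 2N ChP DGCs (median 510) and 2.88 to 24.6 CPM in CA3 PNs (median 8.22). The groups did not overlap, and the log2 fold change (LFC) of DGCs over CA3 PNs was 6.03 ± 0.36 (SE, adjusted p = 3.53e-11). Cdhr1 and Stc1 were also higher in DGCs than in CA3 PNs, with LFCs of 0.96 ± 0.32 (adjusted p = 0.0144) and 2.26 ± 0.82 (adjusted p = 0.0276). Stc1 rested on few counts, 29 over the 7 DGC libraries and 9 over the 7 CA3 PN libraries, a ratio of 6.00 per total count with an exact 95% interval from 2.77 to 14.4 that covers counting error only. Without mouse 15-334 both calls were lost, at an LFC of 0.71 for Cdhr1 (adjusted p = 0.121) and 1.68 for Stc1 (adjusted p = 0.156).

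The other 3 members were lower in DGCs. Nrip3 was at 40.9 to 69.5 CPM in DGCs (median 52.6) and at 327 to 449 CPM in CA3 PNs (median 391). No DGC library reached a CA3 PN library, and the LFC was -2.74 ± 0.74 (adjusted p = 0.00575). The SE and p between populations come from a fit of the 2N ChP libraries of DGCs, CA3 PNs and CA1 PNs together. For Nrip3 they therefore also carry its spread in CA1 PNs (9.41 to 717 CPM), and not that of DGCs and CA3 PNs alone. Cadm4 had an LFC of -1.50 ± 0.24 (adjusted p = 1.90e-06) and Crtac1 one of -0.70 ± 0.22 (adjusted p = 0.0119). Scaled by library totals in place of TMM, the median LFC of all genes between DGCs and CA3 PNs moved from 0.02 to 0.23, and the 6 members kept their directions.

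Against CA1 PNs, 4 of the 6 members were DEGs in DGCs (background 40.1%) and 4 of 6 in CA3 PNs (background 32.7%). Cdhr1 had 3 counts in all over the 7 2N ChP libraries of CA1 PNs, against 109 in DGCs and 93 in CA3 PNs. The ratios per total count were 44.0 (exact 95% interval 14.7 to 217) for DGCs and 20.1 (6.68 to 99.5) for CA3 PNs, counting error only. Fam163b was higher in DGCs than in CA1 PNs (LFC 3.94 ± 0.30, adjusted p = 3.21e-09) and lower in CA3 PNs than in CA1 PNs (LFC -2.09 ± 0.40, adjusted p = 0.000628). Cadm4 was lower in DGCs than in CA1 PNs, with an LFC of -1.80 ± 0.24 (adjusted p = 6.48e-08). Stc1 was lower and Crtac1 higher in CA3 PNs than in CA1 PNs, with LFCs of -2.60 ± 0.78 (adjusted p = 0.0144) and 0.78 ± 0.22 (adjusted p = 0.00810). Among the 2N ChP libraries of CA1 PNs, 3 were rich in markers of the CA2 field (mean log2 CPM above 5). Stc1 was at 5.70 to 27.0 CPM in these 3. In the other 4 it was at 0 to 2.34 CPM, beside 0 to 2.64 CPM in 2N ChP CA3 PNs. Cdhr1 was at 0 to 1.71 CPM in the 3 CA2-rich libraries and at 0 CPM in the other 4. For Nrip3 the call against CA1 PNs depended on the model and on the libraries included. The 3 CA2-rich 2N ChP libraries of CA1 PNs held 266 to 717 CPM of Nrip3. The other 4 held 9.41 to 22.1 CPM, below every 2N ChP DGC library (40.9 to 69.5 CPM). The LFC of Nrip3 in DGCs over CA1 PNs was -1.87 ± 0.74 (unadjusted p = 0.0216 by edgeR, adjusted p = 0.0644), and with the mouse as a replicate block it was -1.28 (adjusted p = 0.256). By limma-voom it was -0.27 (adjusted p = 0.847), and the call was also lost in Ts libraries (-1.27) and without mouse 15-334 (-1.84), 15-336 (-1.23) or 16-90 (-1.57). That of CA3 over CA1 PNs was 0.87 ± 0.65 (adjusted p = 0.395). It passed the unadjusted threshold with the block, at 1.66 (adjusted p = 0.119), without mouse 15-336, at 1.54 (adjusted p = 0.0991), and by limma-voom, at 2.49 (adjusted p = 0.00848).

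**Figure D1:**
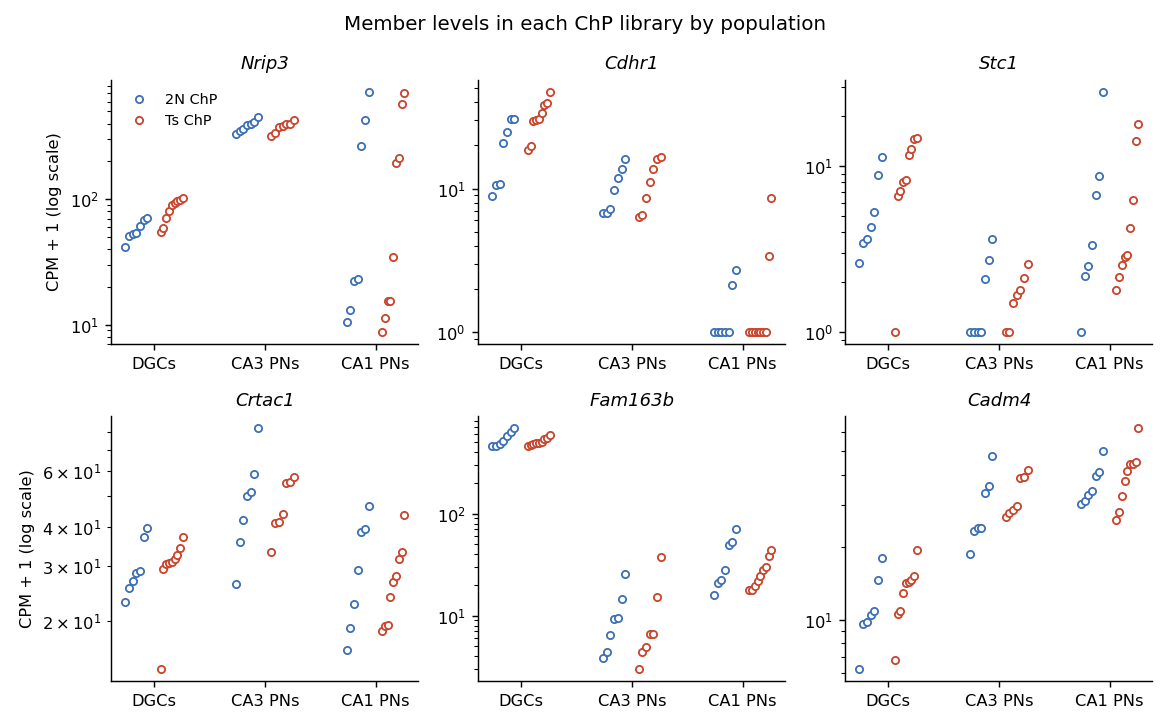
CPM plus 1 on a log axis in each ChP library of DGCs, CA3 PNs and CA1 PNs, with 2N mice in blue and Ts mice in red. Fam163b lies between 454 and 682 CPM in 2N DGCs and at 24.6 CPM or less in 2N CA3 PNs, Nrip3 is higher in every 2N CA3 PN library than in every 2N DGC library, and Nrip3 in CA1 PNs falls into a low and a high set of libraries.

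On ChN, the values that chose the genes are a description of those mice. Nrip3 had 32.5 to 62.0 CPM in 2N DGCs (median 42.4) and 60.9 to 82.2 CPM in Ts DGCs (median 65.7), and 5 of the 6 2N libraries were below every Ts library. Cdhr1 had 8.96 to 15.6 CPM (median 13.7) in 2N and 14.9 to 41.8 CPM (median 27.0) in Ts DGCs. Stc1 had 0 to 4.20 CPM (median 2.85) in 2N and 5.64 to 18.8 CPM (median 8.86) in Ts DGCs. These 3 genes were the higher ones in Ts, with fitted LFCs of 0.66 ± 0.14 for Nrip3, 1.08 ± 0.23 for Cdhr1 and 1.92 ± 0.40 for Stc1. Cadm4 was higher in Ts DGCs as well, at 10.5 to 14.1 CPM against 1.57 to 10.5 CPM in 2N (LFC 1.06 ± 0.32), although its lowest Ts library was level with its highest 2N library to the digits given. Crtac1 was lower in Ts DGCs, at 18.4 to 33.6 CPM against 36.5 to 43.6 CPM in 2N (LFC -0.54 ± 0.16). Fam163b was lower there by a smaller amount (LFC -0.21 ± 0.06). For it, 5 of 6 Ts libraries were below every 2N library, and 3 of 6 2N libraries were above every Ts library.

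The sequence before the start of the 2 genes called in ChP DGCs is shown here, to set beside the values that follow. Each is the 250 bases upstream of the canonical transcript's start, on the minus strand of GRCm39, written 5′ to 3′, at chr7:109380753-109381002 for Nrip3 and chr14:36820485-36820734 for Cdhr1. Capitals mark every match, on either strand, to a GC box (GGGCGG), a cAMP response element (TGACGTCA) or a TATA box (TATAAA). The Nrip3 window lies within the gene's longest annotated span, in an intron of a longer transcript.
Nrip3: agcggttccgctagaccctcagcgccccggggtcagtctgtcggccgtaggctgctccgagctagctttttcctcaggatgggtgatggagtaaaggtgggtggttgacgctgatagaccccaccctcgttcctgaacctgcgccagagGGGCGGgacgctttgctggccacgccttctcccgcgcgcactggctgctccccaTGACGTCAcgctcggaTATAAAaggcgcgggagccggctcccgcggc
Cdhr1: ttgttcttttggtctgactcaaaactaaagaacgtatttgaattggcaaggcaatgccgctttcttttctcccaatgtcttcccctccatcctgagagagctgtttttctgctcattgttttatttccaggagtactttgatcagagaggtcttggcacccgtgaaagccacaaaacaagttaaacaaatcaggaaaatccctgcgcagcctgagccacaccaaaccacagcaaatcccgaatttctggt
The Nrip3 window held 1 match to each of the 3 motifs, with no overlap between them, and the Cdhr1 window held none. Of 21593 such windows of protein-coding genes, 36.4% held a GC box, 1.7% the cAMP response element and 11.9% a TATA box. An E-box (CANNTG, with N any base) was also searched for. It had no match in either window and occurred in 64.8% of all windows. Members that were not called held such matches too, with 1 TATA box for Stc1, 1 GC box for Fam163b and 4 GC boxes for Cadm4. The GC content was 65.6% for Nrip3 and 44.0% for Cdhr1, against a median of 53.2% over all windows. A match of letters says nothing of whether a factor binds.

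In DGCs of ChP mice, Nrip3 and Cdhr1 were again higher in Ts and the other 4 members did not pass the test. That is 2 of 6 members called, where 7.6% of the 14162 genes tested were DEGs. Nrip3 had 40.9 to 69.5 CPM in 2N (median 52.6) and 53.7 to 102 CPM in Ts (median 88.8). Of the 9 Ts libraries, 7 were above every 2N library, and 4 of the 7 2N libraries were below every Ts library. The LFC was 0.55 ± 0.13, a ratio of 1.47, with an adjusted p = 0.0167 in edgeR's quasi-likelihood test over all genes. Over 25 alternative fits the LFC stayed between 0.47 and 0.62, and the adjusted p ran from 0.00185 to 0.0977, under 0.05 in 20 of them. The adjusted p was 0.0977 without 2N mouse 14-125, 0.0545 without 2N mouse 16-90 and 0.0977 without the 3 shallowest libraries, where the LFC was 0.57 ± 0.15. It was 0.0734 by limma-voom and 0.0658 by edgeR with the prefix of the mouse name as a term.

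Cdhr1 had 7.90 to 29.4 CPM in 2N DGCs on ChP (median 19.7) and 17.5 to 46.3 CPM in Ts DGCs (median 29.6). The ranges overlapped, with 5 of 9 Ts libraries above every 2N library and 3 of 7 2N libraries below every Ts library. The LFC was 0.72 ± 0.25, with an unadjusted p = 0.00674 by edgeR that did not hold over all genes (adjusted p = 0.312). It was a DEG in all 25 alternative fits, with LFCs from 0.56 to 0.91 and adjusted p from 0.0390 to 0.615. Cdhr1 rested on 4 to 31 counts per 2N library and 16 to 52 per Ts library.

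Stc1, at 1.60 to 10.4 CPM in 2N (median 3.28) and 0 to 13.8 CPM in Ts (median 7.19), had an LFC of 0.75 ± 0.40 that missed the threshold (unadjusted p = 0.0646 by edgeR, adjusted p = 0.697). Which side of the threshold it fell on turned on single mice, since Stc1 passed the unadjusted threshold without 2N mouse 15-269 (LFC 0.93) or 15-334 (1.13) and without Ts mouse 16-272 (0.90) or 17-03 (0.84), and with no filter (0.76), in 5 of 24 alternatives in all, at adjusted p of 0.487 or more. Its ChP libraries held at most 14 counts, and 4 of the 9 Ts libraries lay above every 2N library while 1 lay below all of them. Cadm4 had 5.26 to 17.2 CPM in 2N (median 9.48) and 5.84 to 18.5 CPM in Ts (median 13.2). Only 1 Ts library lay above every 2N library, and the LFC of 0.29 ± 0.27 did not pass (adjusted p = 0.888). Crtac1, lower in every ChN Ts library, had 22.1 to 38.5 CPM in 2N (median 27.5) and 13.1 to 36.1 CPM in Ts (median 29.8) on ChP. The groups overlapped almost fully, with an LFC of -0.04 ± 0.17 (adjusted p = 0.984). Fam163b had 454 to 682 CPM in 2N and 455 to 583 CPM in Ts (LFC -0.11 ± 0.07, adjusted p = 0.813).

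For Crtac1, the 2N level itself was lower on ChP than on ChN, at 28.9 ± 6.1 CPM (SD, n = 7) against 39.8 ± 2.7 (SD, n = 6), while the Ts levels were 29.0 ± 6.4 (n = 9) and 27.0 ± 6.3 (n = 6). For Cadm4 the 2N level was 10.4 ± 3.9 CPM on ChP and 5.97 ± 3.76 on ChN, beside Ts levels of 12.2 ± 3.6 and 12.7 ± 1.2. Whether the Ts effect differed between diets was not tested, because the ChN values chose the genes. Diet and the time of processing cannot be told apart, since no label says that mice of both diets were processed together.

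**Figure D2:**
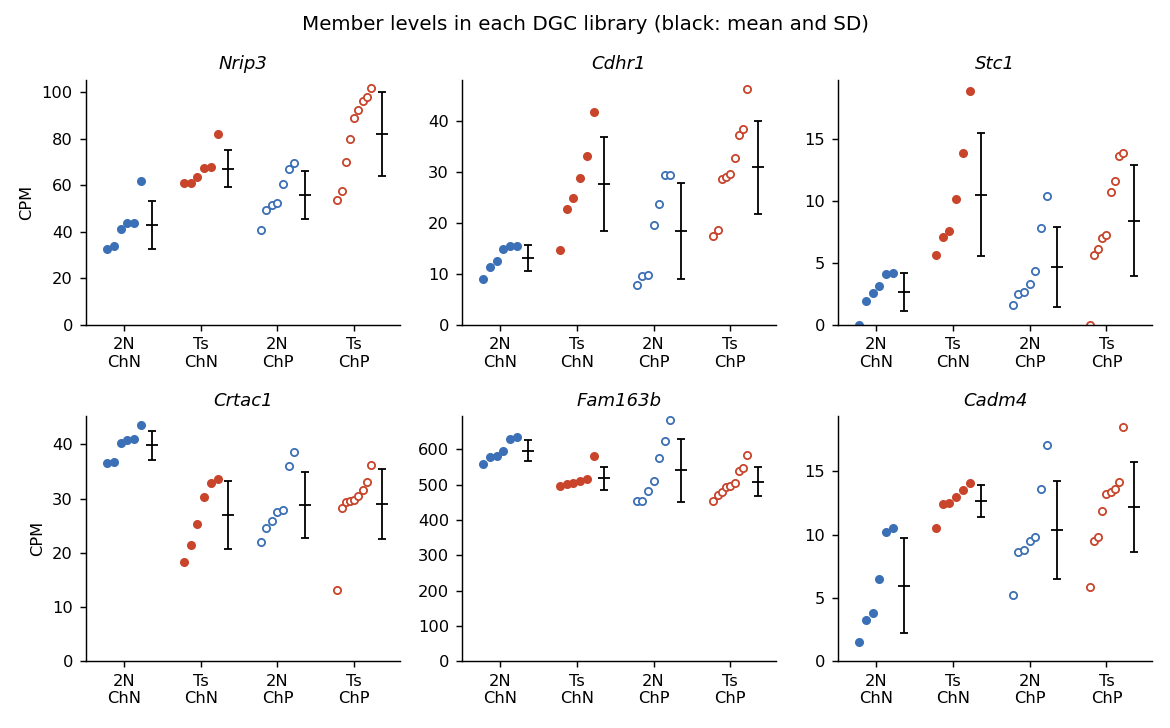
CPM of the 6 members in each DGC library, by genotype and diet (2N blue, Ts red, ChN filled, ChP open), with the group mean and SD in black. On ChP the Ts libraries of Nrip3 and Cdhr1 lie higher than 2N with overlap, and those of Crtac1, Fam163b and Cadm4 overlap the 2N libraries almost fully.

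Markers of other cells moved with genotype in the same ChP DGC libraries. The mean log2 CPM of 6 inhibitory neuron markers was 2.67 to 3.29 in 2N and 3.32 to 3.87 in Ts, with no overlap, and 3 of the 4 that could be tested were higher in Ts. Among them Gad2, a GABA-synthesizing enzyme, had 11.5 to 49.9 CPM in 2N and 45.6 to 79.8 CPM in Ts. Gad1, another of the 3, had a 2N ChP median of 159 CPM in DGCs, against 87.9 in CA3 PNs and 108 in CA1 PNs. It therefore does not set other cells apart from DGCs here. Gad2 and Slc32a1 had their lowest 2N ChP medians in DGCs, at 26.95 and 10.4 CPM. On ChN the list ran from 3.13 to 3.77 in 2N and from 2.98 to 3.91 in Ts, and overlapped. Within the 4 DGC groups, the correlation of Nrip3 with this list over the 28 libraries was r = 0.09 and rho = -0.05 (0.08 without the 2 libraries farthest from the median of the list), and that of Cdhr1 was r = -0.24 and rho = -0.31 (-0.16). These are descriptions over libraries that share their scaling.

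Of the 5 CA3 markers, whose cells hold several times more Nrip3 than DGCs, 1 of 4 tested was higher in Ts ChP DGCs. Cpne4 had 32.8 to 87.1 CPM in 2N and 69.1 to 124 CPM in Ts (LFC 0.48 ± 0.15, adjusted p = 0.229), against 271 to 351 CPM in 2N CA3 PNs. Bok, at 87.4 to 140 CPM in those CA3 PNs, had 0 to 8.19 CPM in 2N DGCs and 2.05 to 10.1 CPM in Ts DGCs (LFC 0.55 ± 0.46, adjusted p = 0.863), and Coch was at 0 counts in every DGC group. The list as a whole had a mean log2 CPM of 2.88 to 3.22 in 2N and 3.07 to 3.48 in Ts, and its correlation with Nrip3 within the DGC groups was r = 0.07 and rho = 0.15 (0.20 without the 2 farthest libraries). Of 6 CA2 markers tested 2 were higher in Ts, Rgs14 and Pcp4. Pcp4 itself lies in the triplicated segment, so its additional copy and CA2 cells cannot be told apart for it. The CA2 list had a mean log2 CPM of 3.26 to 3.81 in 2N and 3.42 to 3.74 in Ts, with each Ts library inside the 2N range. Of 5 astrocyte markers 2 were higher in Ts, of 4 oligodendrocyte markers tested 1 and of 4 microglia markers 1, Csf1r. Of 6 dentate granule markers 3 were lower in Ts, and of 4 CA1 markers tested 2. The part of these cells in the Nrip3 and Cdhr1 differences was not tested.

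In CA3 PNs of ChP mice, none of the 5 members that passed the filter was a DEG, where 4.99% of the 14041 genes tested were. Fam163b had an LFC of 0.15 ± 0.69, Cadm4 0.14 ± 0.18, Cdhr1 0.01 ± 0.31, Nrip3 -0.03 ± 0.08 and Crtac1 -0.11 ± 0.18, all at adjusted p = 0.999. Stc1 was under the filter, at 0 to 2.64 CPM.

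Fam163b had the largest ChN difference of the 5 members fitted in CA3 PNs. It had 8.71 to 22.7 CPM in 2N (median 13.2) and 3.00 to 8.22 CPM in Ts (median 4.53) on ChN, an LFC of -1.56 ± 0.30 that was -0.97 when the CA3 PN sample of mouse 15-145 was counted as Ts. On ChP, 2N libraries ran from 2.88 to 24.6 CPM (median 8.22) and Ts libraries from 2.01 to 36.9 CPM (median 5.54). The highest Ts value, 36.9 CPM, came from the library of mouse 15-140, which also held 54.9 CPM of Prox1 and 41.7 CPM of Dsp, both dentate granule markers. The remaining CA3 PN libraries of the series held at most 10.1 and 2.74 CPM of them. Without that library the ChP LFC turned to -0.61 (unadjusted p = 0.199 by edgeR), with no call. Among the ChN CA3 PN libraries the dentate granule list ran from 2.11 to 2.53 in 2N and from 2.15 to 2.49 in Ts, and Dsp was at 1.04 CPM or less in all 12.

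For Crtac1 and Cadm4, the ChN difference in CA3 PNs had the opposite sign to that in DGCs, while that of Fam163b was negative in both populations. Crtac1 had 21.3 to 43.5 CPM in 2N and 33.4 to 72.3 CPM in Ts CA3 PNs on ChN (LFC 0.75 ± 0.18), and on ChP 25.2 to 81.1 CPM in 2N and 32.2 to 56.6 CPM in Ts, with each Ts value inside the 2N range. Cadm4 had 16.4 to 49.9 CPM in 2N and 22.9 to 28.5 CPM in Ts on ChN (LFC -0.49 ± 0.19), and on ChP 17.7 to 46.6 CPM in 2N and 25.6 to 40.9 CPM in Ts. Here too no Ts library of ChP left the 2N range. Crtac1 shares 6280 bases with Golga7b on the opposite strand, so its counts could include reads of that gene if strand was not used in counting. Cdhr1 had an LFC of 0.79 ± 0.26 in CA3 PNs on ChN, and on ChP its medians were 8.73 CPM in 2N and 10.2 CPM in Ts.

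**Figure D3:**
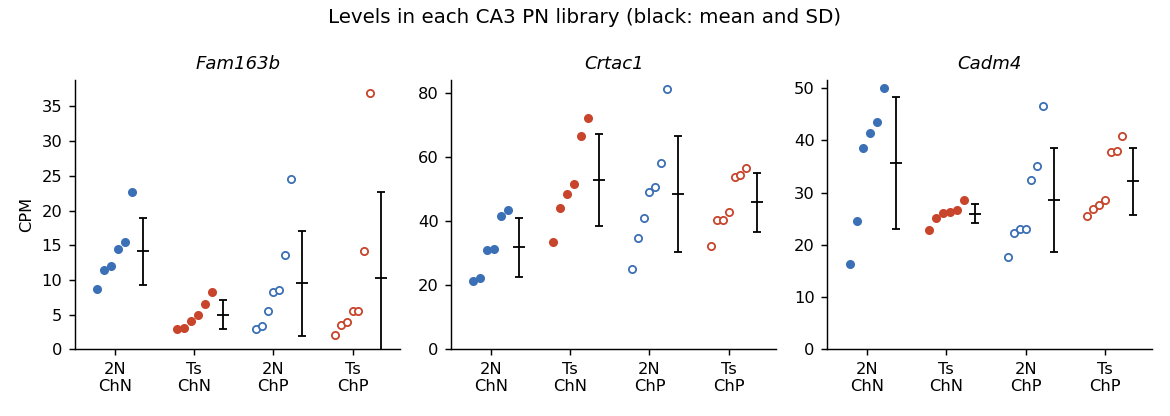
CPM of Fam163b, Crtac1 and Cadm4 in each CA3 PN library, by genotype and diet (2N blue, Ts red, ChN filled, ChP open), with the group mean and SD in black, the SD bar ending at 0 where it would pass it. On ChN every Ts library of Fam163b is below every 2N library, on ChP the groups overlap for all 3 genes, and the Ts ChP library at 36.9 CPM of Fam163b is that of mouse 15-140.

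The difference between the Ts effects in CA3 PNs and DGCs was then tested in ChP mice. It called 1 of the 6 members, Nrip3, where 5.2% of 16899 genes were called. The Ts effect on Nrip3 was lower in CA3 PNs than in DGCs by an LFC difference of -0.57 ± 0.15 (unadjusted p = 0.000298 by edgeR, adjusted p = 0.380), and no gene passed the adjusted threshold, against 879 at the unadjusted one. With the mouse as a replicate block 9 genes did, and the adjusted p of Nrip3 was 0.0698. Over 21 alternatives its difference ran from -0.66 to -0.51. This test shares the DGC libraries with the comparison above and is no second sample of them. On ChN, the corresponding value was -0.60 ± 0.15.

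The other members were not called. Their differences were -1.38 ± 0.21 for Fam163b, 1.28 ± 0.24 for Crtac1 and -1.55 ± 0.36 for Cadm4 on ChN, and 0.24 ± 0.54, -0.06 ± 0.24 and -0.14 ± 0.31 on ChP. The sign of the Fam163b value on ChP turned on mouse 15-140, whose CA3 PN library held dentate granule markers. Without that mouse it was -0.45 ± 0.45, with no call. Cdhr1 had a ChP difference of -0.74 ± 0.39 (unadjusted p = 0.0626 by edgeR, adjusted p = 0.945), which passed the unadjusted threshold in 4 of 21 alternatives, among them those without 2N mouse 15-334 (-1.04) or Ts mouse 17-03 (-0.90). Stc1 had one of -1.32 ± 0.91, which passed without mouse 15-334 (-1.95).

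**Figure D4:**
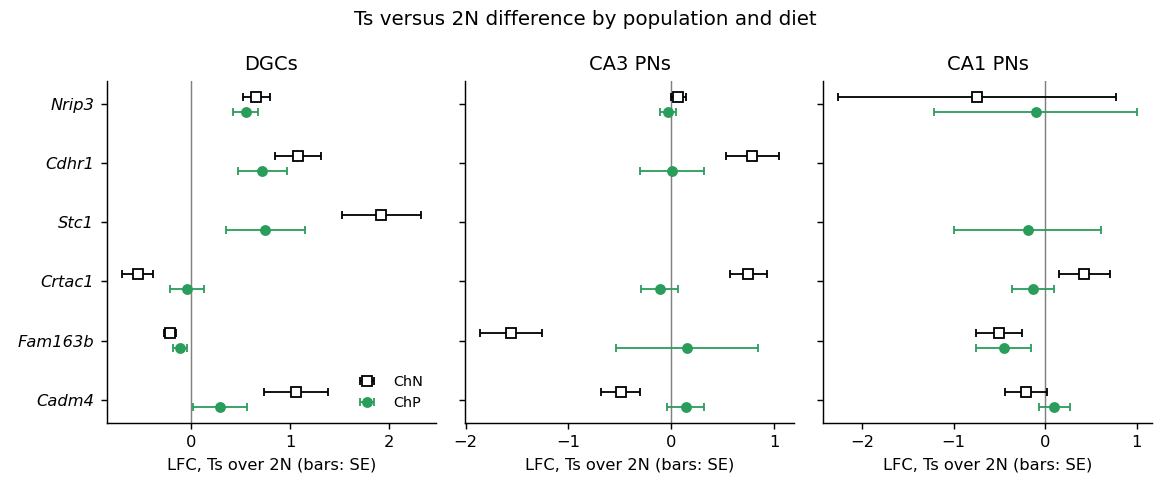
LFC of Ts over 2N with its SE for the 6 members in DGCs, CA3 PNs and CA1 PNs, with ChN as open squares and ChP as green circles and no point where a gene was under the filter. In DGCs the ChP values of Nrip3 (0.55) and Cdhr1 (0.72) have the sign of their ChN values (0.66 and 1.08), while in CA3 PNs the ChN values of Fam163b, Crtac1 and Cadm4 lie away from 0 and the ChP values are within 1 SE of 0. For Fam163b the plotted ChP value in CA3 PNs includes the library of mouse 15-140, without which it was -0.61 ± 0.46.

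In CA1 PNs, which did not choose the genes, no member was a DEG on ChN (4 tested, background 3.77%) or on ChP (5 tested, background 3.6%). Fam163b had LFCs of -0.50 ± 0.25 on ChN (unadjusted p = 0.0608 by edgeR, adjusted p = 0.9996) and -0.45 ± 0.30 on ChP (adjusted p = 1). Cadm4 had -0.21 ± 0.23 and 0.10 ± 0.17, and Crtac1 0.43 ± 0.28 and -0.13 ± 0.23. On ChN whether Fam163b was called turned on single mice, since it passed the unadjusted threshold in 5 of 20 alternatives, with no filter (-0.49) and without Ts mouse 16-357 (-0.58) or 17-157 (-0.57) or 2N mouse 17-172 (-0.58) or 17-56 (-0.55), at adjusted p of 0.706 or more. On ChP it passed with 1 surrogate variable (-0.37, adjusted p = 0.729). Crtac1 passed on ChN without Ts mouse 17-173 (0.63, adjusted p = 0.9999), and Nrip3 with the prefix of the mouse name as a term (-4.50, adjusted p = 0.850). Without the library of mouse 17-154 the ChN values of Fam163b, Cadm4 and Crtac1 were -0.47, -0.21 and 0.45.

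Nrip3 in CA1 PNs varied far more within each group than between groups. Its CPM ran from 6.26 to 795 in 2N ChN (median 18.2) and from 9.41 to 717 in 2N ChP (median 22.1). In Ts it was at 11.4, 11.4, 13.2, 25.8 and 481 on ChN and ran from 7.69 to 701 on ChP (median 33.6). The high and low libraries occur in both genotypes and both diets. Markers of CA2, the field between CA1 and CA3, moved with it. In the 10 CA1 PN libraries whose mean log2 CPM over 7 CA2 markers was above 5 (5.74 to 7.91), Nrip3 was at 194 to 795 CPM, and in the 17 others (1.64 to 3.23) it was at 6.26 to 33.6 CPM. Over the 27 libraries, r between the list and log2 CPM of Nrip3 was 0.99 and rho 0.88 (0.99 without the 2 libraries farthest from the median), as a description. The list was at 2.55 to 3.52 in CA3 PNs, where Nrip3 was at 268 to 449 CPM. The CA3 list in CA1 PNs was also higher in the 10 libraries, at 3.28 to 5.79 against 0.89 to 2.48, and the CA1 list was lower, at 2.40 to 6.24 against 6.37 to 6.88.

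Stc1 and Fam163b followed the same split in CA1 PNs. Stc1 was at 3.24 to 27.0 CPM in the 10 libraries and at 0 to 2.34 CPM in the 17. Fam163b was at 18.4 to 69.9 CPM (median 40.2) and 15.0 to 32.5 CPM (median 22.3), which overlapped, as did Crtac1 and Cadm4. Cdhr1, of few counts in CA1 PNs, was at 0 to 7.58 CPM in the 10 libraries and at 0 to 1.04 CPM in the 17. Leaving out the 10 libraries, which was chosen after seeing the data, Nrip3 had LFCs of Ts over 2N of 0.25 ± 0.34 on ChN and -0.16 ± 0.34 on ChP, in place of -0.74 ± 1.52 and -0.10 ± 1.11. Cadm4 then passed the unadjusted threshold on ChP, at 0.41 ± 0.19 (unadjusted p = 0.0389 by edgeR, adjusted p = 0.742), and Fam163b had 0.07 ± 0.25. The part of CA2 cells in these levels was not tested.

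**Figure D5:**
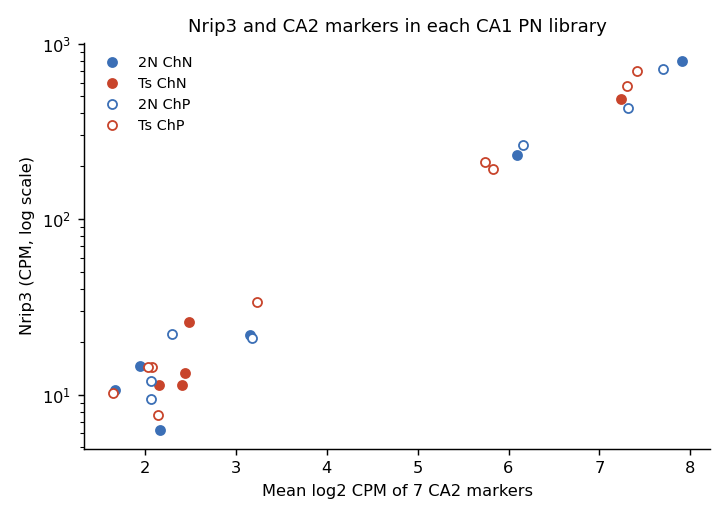
Nrip3 CPM on a log axis against the mean log2 CPM of 7 CA2 markers in each of the 27 CA1 PN libraries, by genotype and diet (2N blue, Ts red, ChN filled, ChP open). Libraries with a CA2 mean of 5.74 or more hold 194 CPM of Nrip3 or more, and those of 3.23 or less hold 33.6 CPM or less, in each of the 4 groups.

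The families and partners of the members were counted beside them, 35 further genes in all. In ChP DGCs 27 could be tested, of which 3 were higher and 2 lower in Ts, where 7.6% of all genes were called, with a median LFC of 0.04 against 0.01 over all genes. Of the stanniocalcin and PAPP-A/IGF genes, Stc2, the second stanniocalcin, was higher (LFC 0.64 ± 0.30, adjusted p = 0.592) and Igf1r, the receptor of insulin-like growth factor 1, lower (-0.21 ± 0.10, adjusted p = 0.574). Stc2 was at 2.15 to 13.1 CPM in 2N and 4.87 to 21.6 CPM in Ts, and its ChN values were 0.61 ± 0.31. Of the SynCAM and nectin genes, Cadm3 was higher (0.20 ± 0.08, adjusted p = 0.394), at 174 to 228 CPM in 2N and 212 to 274 CPM in Ts, and Cadm2 lower (-0.14 ± 0.07, adjusted p = 0.573). Both had the same sign on ChN, at 0.31 ± 0.08 and -0.20 ± 0.07. Of the Nogo receptor genes Mag, a myelin protein of oligodendrocytes that binds this receptor, was higher (1.69 ± 0.59, adjusted p = 0.273), at 0 to 4.90 CPM in 2N and 0.97 to 7.09 CPM in Ts. The ChN values of Igf1r and Mag were -0.29 ± 0.10 and 0.62 ± 0.60.

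The rest of the Nrip, cadherin-related and Fam163 genes gave no DEG in ChP DGCs. In ChP CA3 PNs 1 of 29 tested was called, where 4.99% of all genes were. It was Pappa2, a protease of the PAPP-A family (1.58 ± 0.53, adjusted p = 0.499), at 0 to 2.19 CPM in 2N and 2.01 to 7.76 CPM in Ts. On ChN its sign was the opposite (-0.20 ± 0.45), at 2.20 to 5.11 CPM in 2N and 0 to 4.45 CPM in Ts. Neither diet gave a DEG among them in CA1 PNs, of 21 tested on ChN and 27 on ChP.

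Genes with a pattern most like each member were named by Pearson's r of log2 CPM. Over all 81 libraries, where differences between populations dominate, Rims1 (r = 0.93), Asph and Sh3d19 (0.92 each) were most like Nrip3, and Rfx3, Mef2c (0.97 each) and Npnt (0.96) most like Fam163b. For Cdhr1 these were Mapk3, Gm34567 and Pcsk5 (0.92 each), for Cadm4 Camk1g (0.87), Ntrk2 and Samd5 (0.86 each), for Stc1 Gm49593 (0.80), Dock11 (0.78) and Slc4a7 (0.77), and for Crtac1 Nrp1 (0.68), Klhl26 and Myo5b (0.67 each). Over the 28 DGC libraries with the mean of each genotype and diet group subtracted, Arhgef17 (0.77), Plekha6 (0.73) and Ssbp4 (0.65) were most like Nrip3 and Miga1 (0.74), Bmp1 (0.69) and Napb (0.65) most like Cdhr1. Abcc8 (0.76), Rimbp2 and Agap2 (0.75 each) were most like Fam163b, Grik3 (0.73), Slitrk3 and Hdac8 (0.68 each) most like Crtac1, Plpp5 (0.69), Serp1 and Nagk (0.66 each) most like Cadm4, and Ptdss2 (0.69), Klhl32 (0.67) and Cables1 (0.66) most like Stc1. They are the highest of 9831 and 9947 genes compared and are given as descriptions. Among the members themselves, Nrip3 and Cdhr1 had r = 0.51 and rho = 0.47 in these centred DGC values, and Cdhr1 and Crtac1 r = -0.33 and rho = -0.49.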

How the data were processed

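RNA of laser-captured neurons was sequenced, 1 library per mouse and population. Per the labels and the study's methods, the authors checked and trimmed reads (FastQC 0.11.9, Trimmomatic 0.39), aligned them to GRCm39 with STAR, ran Picard 2.26.2 and quantified genes with RSEM. They deposited expected counts, unnormalized, and TPM, which RSEM scales by transcript length and to a fixed total. Since RSEM shares out ambiguous reads, 0.784% of the expected counts were not whole. The 3 matrices held the same values as the 81 library files. Symbols came from GENCODE vM39 for 56310 of 57010 identifiers.

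Expected counts were rounded and tested with edgeR 4.0.16 (TMM, estimateDisp, robust glmQLFit, glmQLFTest, two-sided) within the libraries compared, on genes over 0.1 CPM in at least 10 of them, with no covariate. For a comparison between populations, these were the 2N ChP libraries of all 3 populations, scaled, filtered and fitted together. The study's covariates were not used here. Adjusted p are Benjamini-Hochberg over all genes tested. CPM in the text are scaled by TMM over all libraries, and log2 CPM use a prior count of 2. TPM served only to compare levels between genes. The same mice gave the 3 populations. Over 9831 genes, ChP residuals of the same mouse in CA3 PNs and DGCs correlated at 0.0384 to 0.180 (median 0.0992, 14 mice), and the mouse was a replicate block in an alternative. Alternatives also included DESeq2 1.42.0, limma-voom (limma 3.58.1), sva 3.50.0, other filters and scaling, and leaving out each mouse. The fits were tested on simulated data, in which each library was drawn independently. The simulation held no effect of the mouse and no difference between populations beyond the effects set. It therefore cannot speak to tests that hold several libraries of the same mouse. Named genes are the 6 members, the DEGs of their families, and the 3 genes most like each member. The members and lists were chosen with earlier results of these data known. Promoter windows were read from the GRCm39 sequence.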

Additional observations from a re-analysis of the deposited data

Results flagged for a closer look

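Of 62 groups of a member's CPM, 8 held a library set apart from the others by Dixon's test, a test by which chance picks about 1 in 20 groups. Nrip3 was set apart at 82.2 CPM in the Ts ChN DGC library of mouse 16-357, at 425 CPM in the Ts ChN CA3 PN library of mouse 17-157, at 795 CPM in the 2N ChN CA1 PN library of mouse 17-21 and at 481 CPM in the Ts ChN CA1 PN library of mouse 16-357. Fam163b was set apart at 582 CPM in the Ts ChN DGC library of mouse 16-357 and at 36.9 CPM in the Ts ChP CA3 PN library of mouse 15-140. Stc1 was set apart at 27.0 CPM in the 2N ChP CA1 PN library of mouse 15-336, and Crtac1, as the lowest library, at 13.1 CPM in the Ts ChP DGC library of mouse 16-272. The CA3 minus DGC difference in the Ts effect on Nrip3 on ChP, an LFC of -0.57, passed the unadjusted threshold only (adjusted p = 0.380 by edgeR).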

How the results depend on the processing

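Nrip3 and Cdhr1 stayed DEGs in ChP DGCs in all 25 alternatives. Alternatives without libraries poor in counts or rich in CA2 markers were chosen after seeing the data. With no filter, the ChP DEGs numbered 1686 (DGCs), 1593 (CA3 PNs) and 1237 (CA1 PNs), with 1067 for CA1 PNs on ChN and 1461 for the CA3 minus DGC difference, over more genes tested, and Stc1 passed in DGCs (LFC 0.757). With 1 surrogate variable CA1 PNs gave 929 (ChP) and 868 (ChN), and without CA2-rich libraries 913 and 858. With the mouse as a replicate block the difference gave 870 DEGs against 879, and the block changed the calls of Nrip3 against CA1 PNs (-1.28 for DGCs, 1.66 for CA3 PNs) and no other. With limma-voom the sign turned for Cdhr1 (-0.137) and Fam163b (-0.220) in CA3 PNs, Stc1 in CA1 PNs (0.219), Fam163b in the difference (-0.114) and Stc1 between DGCs and CA1 PNs (0.466, and 0.576 in Ts libraries). With the surrogate variable it turned for Cdhr1 in CA3 PNs (-0.071), Nrip3 (0.061) and Stc1 (0.041) in CA1 PNs, and with the prefix of the mouse name for Cdhr1 (-0.120) and Nrip3 (0.039). Without CA2-rich libraries it turned for Stc1 (0.275) and Fam163b (0.067) on ChP and Nrip3 (0.247) on ChN. Leaving out 1 mouse, LFCs ran in DGCs from 0.549 to 1.134 for Stc1 and -0.095 to 0.063 for Crtac1, in CA3 PNs from -0.068 to 0.012 for Nrip3, -0.106 to 0.170 for Cdhr1, -0.213 to 0.070 for Crtac1 and -0.612 to 0.466 for Fam163b. In CA1 PNs they ran from -0.639 to 0.635 for Nrip3, -0.679 to 0.806 for Stc1 and -0.251 to 0.011 for Crtac1 on ChP, and from -3.506 to 0.821 for Nrip3 on ChN. For the difference they ran from -0.231 to 0.149 for Crtac1, -0.450 to 0.479 for Fam163b and -0.294 to 0.005 for Cadm4, and between DGCs and CA1 PNs from -0.783 to 0.694 for Stc1 and -0.017 to 0.232 for Crtac1. The cause was not tested. Low counts limit Stc1, Cadm4 and Cdhr1, with medians of 2, 7 and 12 counts in 2N ChP DGCs.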

Other observations

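Of the 30 family and partner genes tested for the CA3 minus DGC difference in the Ts effect on ChP, 1 was higher and 1 lower, where 5.2% of all genes were called. Mag, a myelin protein, had a difference of -1.97 ± 0.64 (adjusted p = 0.685 by edgeR) and Igf2, an insulin-like growth factor, one of 3.07 ± 1.32 (adjusted p = 0.876). Igf2 was at a median of 0 CPM in the DGCs of both genotypes.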
